A study of Homo sapiens with 12 samples.

Results

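Transcript levels of 10 genes of arginine and polyamine metabolism were examined in neuroblastoma cells treated with Erastin. The genes were ASS1, ASL, ARG2, OAT, CPS1, ODC1, AMD1, SRM, SMS and SAT1, 10 of the 58735 rows in each count table, and each was found in 1 row per table. ASS1 was chosen by its measured log2 fold changes with Erastin, which differed between the cell lines, and the other 9 genes because they belong to the same pathways. The values of ASS1 are therefore given as a description, with no test, and the other 9 genes were tested. Earlier results of these data were known when the 9 genes were chosen.

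RNA-seq was carried out on the human neuroblastoma cell lines KELLY, in which MYCN is amplified, and SK-N-AS, in which it is not. Cells received DMSO or Erastin for 24 h. Erastin blocks system Xc-, which brings cystine into the cell in exchange for glutamate. The 4 groups were KELLY with DMSO, KELLY with 1 µM Erastin, SK-N-AS with DMSO and SK-N-AS with 2 µM Erastin, with 3 samples in each group. Cell line and dose cannot be told apart where the responses are compared. Each genotype is represented by a single established line. The 3 samples of a group came from parallel cultures, so the p-values measure the spread between such cultures only. In bulk RNA, fewer cells that express a gene and less RNA per cell cannot be told apart.

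Arginine is made from citrulline in 2 steps. ASS1 (argininosuccinate synthase) joins citrulline to aspartate, and ASL (argininosuccinate lyase) releases arginine and fumarate from the product. CPS1 feeds the mitochondrial start of the urea cycle with carbamoyl phosphate. ARG2, the mitochondrial arginase, splits arginine into urea and ornithine, and OAT links ornithine to glutamate and proline. ODC1 decarboxylates ornithine to putrescine, the first and tightly controlled step toward the polyamines. AMD1 prepares the aminopropyl donor from S-adenosylmethionine, SRM and SMS use it to make spermidine and spermine, and SAT1 acetylates these for export or breakdown. ODC1 is a classical target of MYC family factors, which bind the E-box CACGTG, and polyamine synthesis is a known feature of MYCN amplified neuroblastoma.

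The RefSeq promoter windows of the 10 genes, each from 250 bases before to 50 bases after an annotated start (300 bases, GRCh38.p14), were searched for 3 motifs because the lines differ in MYCN and because Erastin limits the supply of an amino acid. The palindrome CACGTG was present in a window of 4 of 10 genes, namely ASS1, CPS1, ODC1 and SRM, and in 7.256% of all 35116 windows. Several genes have more than 1 window, so the share of genes and the share of windows are not on the same base. The following stretches are shown because they hold the E-boxes closest to the main starts of the genes whose levels are described next. Capitals mark the motif and all are written 5′ to 3′ on the strand of the gene.
ASS1, chr9:130444878-130444907, plus strand: gcgcgtccccgcCACGTGtccccggtcacc
ODC1, chr2:10448024-10448053, minus strand: ccgggccccgggCACGTGtgcggcgcgcct
ODC1, chr2:10447990-10448019, minus strand: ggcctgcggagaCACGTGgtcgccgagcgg
SRM, chr1:11060200-11060229, minus strand: ccggccgggcccCACGTGgcccctggagcg
The ASS1 motif begins 71 bases and the SRM motif 199 bases before the main annotated start, outside any exon. The ODC1 motifs begin 286 and 320 bases after the main start, near the start of a shorter transcript, and neither lies in an exon of the main transcript. The second ODC1 stretch overlaps an exon of another transcript. TGATGNAA, the element of the stress factor ATF4, was found on either strand in no window of the 10 genes and in 3.617% of all windows. The cyclic AMP response element TGACGTCA was found in a window of 1 gene, ARG2, and in 1.848% of all windows. A match of letters does not show binding.

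Total counts lay between 24169796 and 29835670 per sample. MYCN had 130503, 140263 and 145326 counts in KELLY with DMSO and 11, 7 and 11 in SK-N-AS with DMSO, which fits the line labels. The labels call SK-N-AS a neuroblast and KELLY a neuronal cell type. The summed level of 11 adrenergic neuroblastoma markers was 5179 to 12620 CPM (a gene's count relative to library size, scaled by TMM over all 12 samples) in KELLY libraries and 1164 to 1353 in SK-N-AS libraries, with none at 0. The sum of 11 mesenchymal markers was 271.7 to 356.6 CPM in KELLY, where RUNX1 was at 0, and 2649 to 2997 CPM in SK-N-AS. VIM alone had a mean of 1455 CPM in SK-N-AS with DMSO. TWIST1 (118.3 against 118.4 CPM in KELLY) and NOTCH2 (0.915 against 1.09 CPM) overlapped between the lines in DMSO. The part of these differences in the results was not tested. Gene levels followed GC content to a different degree, and in different directions, in libraries of 1 group. Spearman's correlation of GC content with a library's log2 ratio to its line, a description across 12926 genes, was -0.809, 0.664 and -0.446 in KELLY with DMSO and 0.854, -0.624 and 0.232 in KELLY with Erastin. The SK-N-AS libraries lay between -0.704 and 0.732. Values with each library's GC trend removed are given beside the results that it touches.

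ASS1 (chromosome 9, 130444961 to 130501274, plus strand) was the only member whose Erastin samples all lay above its DMSO samples in KELLY. Its levels were highest in SK-N-AS. Its level was 66.4, 131.7 and 103.5 CPM in the KELLY DMSO samples and 351.4, 292.5 and 283.0 CPM in the KELLY Erastin samples. The groups did not overlap, and the lowest Erastin sample was 2.15 times the highest DMSO sample. In SK-N-AS, ASS1 stood at 1063, 1069 and 852.1 CPM with DMSO and at 952.4, 1074 and 939.7 CPM with Erastin. These groups overlapped, and every SK-N-AS sample was above every KELLY sample. The mean of the KELLY group went from 100.5 ± 32.8 to 309.0 ± 37.0 CPM (SD, n = 3), a ratio of 3.07, with a fitted log2 fold change of 1.62 (SE 0.25). In SK-N-AS the fitted log2 fold change of ASS1 was 0.0014 (SE 0.096). The difference between these responses, SK-N-AS minus KELLY, was -1.63 (SE 0.28) on the log2 scale.

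**Figure D1:**
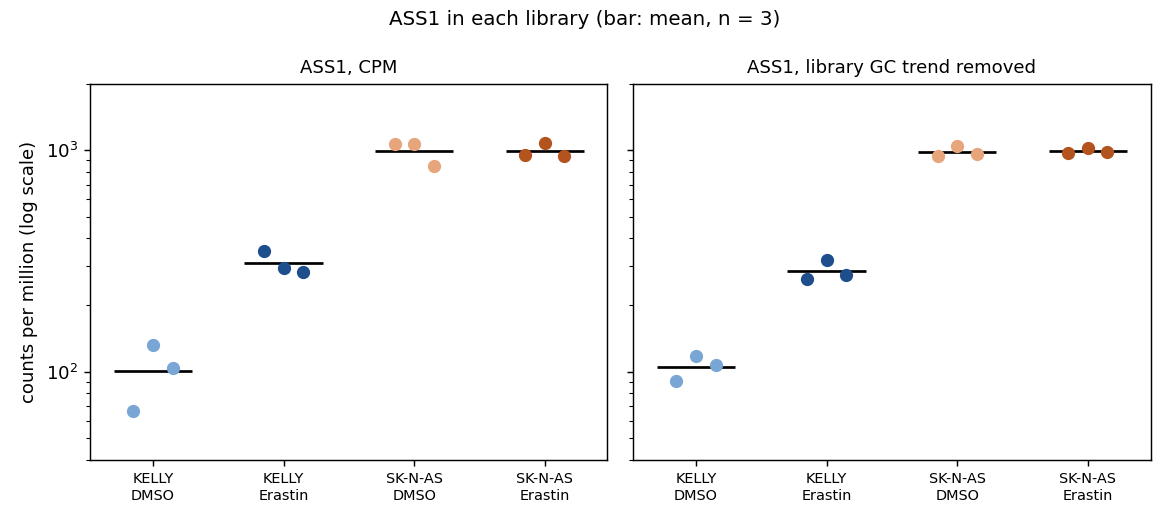
ASS1 level in each of the 12 libraries in CPM on a log axis, as scaled by TMM (left) and with each library's GC trend removed (right); points are libraries and bars are means of 3. The KELLY Erastin libraries (283.0 to 351.4 CPM) lie above the KELLY DMSO libraries (66.4 to 131.7 CPM) and below all SK-N-AS libraries in both panels.

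ASS1 has a GC content of 56.9%, and its spread in KELLY with DMSO moved with the GC trend of the libraries. The lowest value belonged to DMSO replicate 1, the library with the most negative trend, and the highest to replicate 2, with the most positive. With the trend removed, the KELLY DMSO samples were at 90.9, 117.4 and 107.7 CPM and the Erastin samples at 263.0, 318.0 and 273.9 CPM, still without overlap. The log2 fold change was then 1.43. Reads of 11 ASS1 pseudogenes, which could share reads with the gene, amounted to 1.60 to 3.22% of the ASS1 count in KELLY with DMSO and to at most 0.716% in the other groups.

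In DMSO, ASS1 was 9.89 times higher in SK-N-AS than in KELLY (log2 difference 3.29, SE 0.25), and the ratio of the group means in Erastin was 3.20. To compare genes with each other, CPM was divided by the length of the canonical transcript in kilobases. On this scale ASS1 was the most abundant of the 10 transcripts in SK-N-AS, at 649.2 ± 80.6 with DMSO (SD, n = 3), followed by SRM at 246.2 ± 10.1. In KELLY with DMSO it stood at 65.6 ± 21.4, and its samples overlapped those of SMS (76.3 ± 3.21) and AMD1 (60.2 ± 19.1). In KELLY with Erastin it stood at 201.7 ± 24.2 and its samples overlapped those of SRM (225.1 ± 8.02). ODC1 led in KELLY, at 338.9 ± 3.03 with DMSO and 345.6 ± 4.76 with Erastin.

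Among 12358 genes, the 5 whose profile over the 12 samples was most like that of ASS1 were TMEM51-AS1, CERCAM, ARHGAP23, NDRG1 and SPRN. The measure of likeness was the root mean square difference of log2 CPM profiles, each centred on its own mean, and it lay between 0.334 and 0.376. Mean CPM of NDRG1, a stress responsive gene, was 3.32 and 5.87 in KELLY with DMSO and Erastin and 23.1 and 26.9 in SK-N-AS. ARHGAP23 stood at 20.3, 35.7, 161.9 and 169.0 CPM in the same order. CERCAM had means of 2.86 and 4.84 CPM in KELLY, and of 25.3 and 22.4 CPM in the other line. TMEM51-AS1 and SPRN stayed under 8 CPM in each group mean, and reads of the antisense gene TMEM51-AS1 cannot be told from its partner without strand information. In none of the 5 was the ratio of the KELLY group means as large as for ASS1. Since ASS1 was chosen by its fold changes, this is a description and no result.

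The response of the other 9 genes to Erastin in KELLY was assessed over 16258 genes by the quasi-likelihood test of edgeR. None of the 9 was called, neither at the threshold of the methods (a 1.5-fold change or more with an unadjusted p no higher than 0.05), which 2.03% of all tested genes passed, nor at a Benjamini-Hochberg adjusted p under 0.05, which 0.00615% passed. None had an unadjusted p under 0.05, and DESeq2 called 0 at either threshold. The lowest adjusted p was 0.770, and the median log2 fold change of the 9 was -0.132 against 0.00518 over all genes. With so few calls in the whole table, this count says little about the members. The groups did not overlap for 1 of the 9 genes, SMS, and for 8.54% of all genes.

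ODC1 (chromosome 2, 10439968 to 10448327, minus strand) was the steadiest of the members in KELLY. It stood at 847.2, 838.0 and 832.3 CPM with DMSO and at 844.5, 868.0 and 854.5 CPM with Erastin. The groups overlapped and the log2 fold change was 0.03, with a 95% interval from -0.23 to 0.29. A change beyond the 1.5-fold limit in either direction therefore lies outside the interval.

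AMD1 and ASL, the members with the widest intervals in KELLY, could not be resolved. AMD1 (chromosome 6, 110874770 to 110898879, plus strand) stood at 277.6, 149.97 and 190.1 CPM with DMSO and at 98.8, 186.7 and 172.1 CPM with Erastin. The groups overlapped, and the log2 fold change was -0.43 (95% interval -1.13 to 0.26, adjusted p = 0.770 from edgeR). ASL (chromosome 7, 66075800 to 66094697, plus strand), the enzyme after ASS1, stood at 8.8, 29.9 and 18.7 CPM with DMSO and at 44.9, 19.2 and 21.98 CPM with Erastin. Its groups overlapped as well, and the log2 fold change was 0.59 (95% interval -0.51 to 1.70, adjusted p = 0.770 from edgeR). Without KELLY Erastin replicate 1, the ASL fold change was 0.11 and that of AMD1 was -0.20. Without DMSO replicate 1, they were 0.25 and -0.15. Without DMSO replicate 2, they were 1.06 and -0.62, the other end of the range with 1 library left out.

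The spread of both genes moved with the GC trend of the libraries, in opposite directions. In KELLY Erastin replicate 1, the library with the highest trend (0.854), ASL (GC content 60.3%) lay 0.754 above and AMD1 (38.1%) 0.573 below its group mean on the log2 scale. In KELLY DMSO replicate 1, with the lowest trend (-0.809), ASL lay 0.955 below and AMD1 0.478 above. With the trend removed, ASL stood at 13.3, 25.9 and 20.03 CPM with DMSO and at 29.9, 21.5 and 20.9 CPM with Erastin. AMD1 then stood at 194.0, 167.6 and 178.7 CPM and at 152.0, 166.3 and 171.1 CPM, and neither gene was called.

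**Figure D2:**
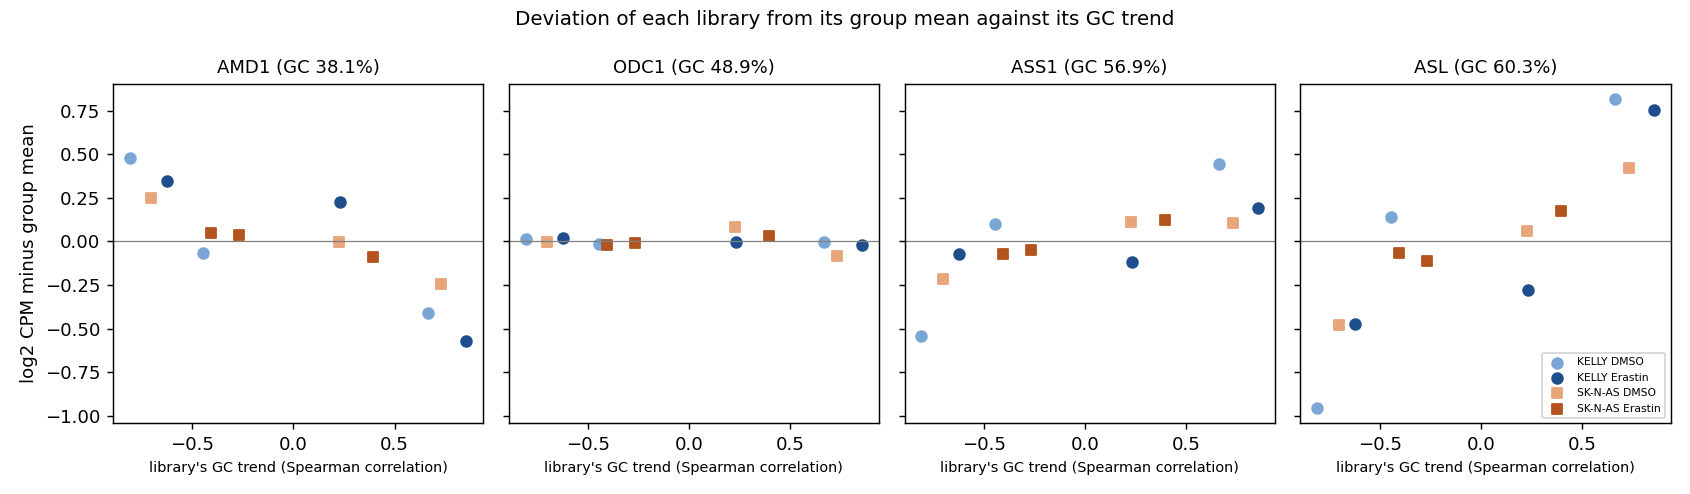
Deviation of log2 CPM from the group mean (vertical axis) against the library's GC trend, Spearman's correlation across genes (horizontal axis), for AMD1, ODC1, ASS1 and ASL; circles are KELLY and squares SK-N-AS libraries. AMD1 falls and ASL rises with the trend, from 0.478 to -0.573 and from -0.955 to 0.754 between the extreme KELLY libraries, while ODC1 stays near 0.

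SRM (chromosome 1, 11054584 to 11060020, minus strand), the spermidine synthase, had the highest GC content of the members, 63.6%. Its level was 193.5, 311.1 and 286.2 CPM in KELLY with DMSO and 288.5, 272.0 and 290.4 CPM with Erastin. The low value was again that of DMSO replicate 1, and the log2 fold change was 0.11 (95% interval -0.33 to 0.55). It turned to -0.07 without that library and to -0.24 with the GC trend removed, so no direction can be given. Removing the trend narrowed the SD of the KELLY DMSO samples from 62.0 to 28.8 CPM. It widened that of the Erastin samples from 10.1 to 69.6 CPM, with values of 176.5, 312.5 and 270.4 CPM. SMS (chromosome X, 21940709 to 21994837, plus strand), the spermine synthase, stood at 124.0, 134.8 and 130.9 CPM with DMSO and at 114.3, 120.4 and 120.2 CPM with Erastin. All Erastin samples were below all DMSO samples, by a log2 fold change of -0.13 (95% interval -0.43 to 0.17).

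The remaining members in KELLY were low or showed small differences. OAT (chromosome 10, 124397303 to 124418976, minus strand) stood at 87.5, 68.0 and 68.6 CPM with DMSO and at 64.3, 67.0 and 69.1 CPM with Erastin. Its log2 fold change of -0.16 (SE 0.16) became 0.03 with the GC trend removed. The SD of OAT then went from 11.1 to 3.54 CPM with DMSO and from 2.40 to 10.4 CPM with Erastin. CPS1 (chromosome 2, 210477682 to 210679107, plus strand) stood at 9.8, 8.2 and 10.1 CPM and at 6.8, 8.9 and 8.2 CPM, and ARG2 (chromosome 14, 67619920 to 67651708, plus strand) at 9.2, 8.2 and 9.5 CPM and at 6.3, 8.3 and 7.1 CPM. Both overlapped, with log2 fold changes of -0.23 (SE 0.19) for CPS1 and -0.31 (SE 0.19) for ARG2. SAT1 (chromosome X, 23783173 to 23786210, plus strand) had only 36, 37 and 41 counts in the DMSO samples and 25, 38 and 47 in the Erastin samples. A difference of SAT1 was not detectable at this depth, with a 95% interval from -0.73 to 0.64 on the log2 scale.

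**Figure D3:**
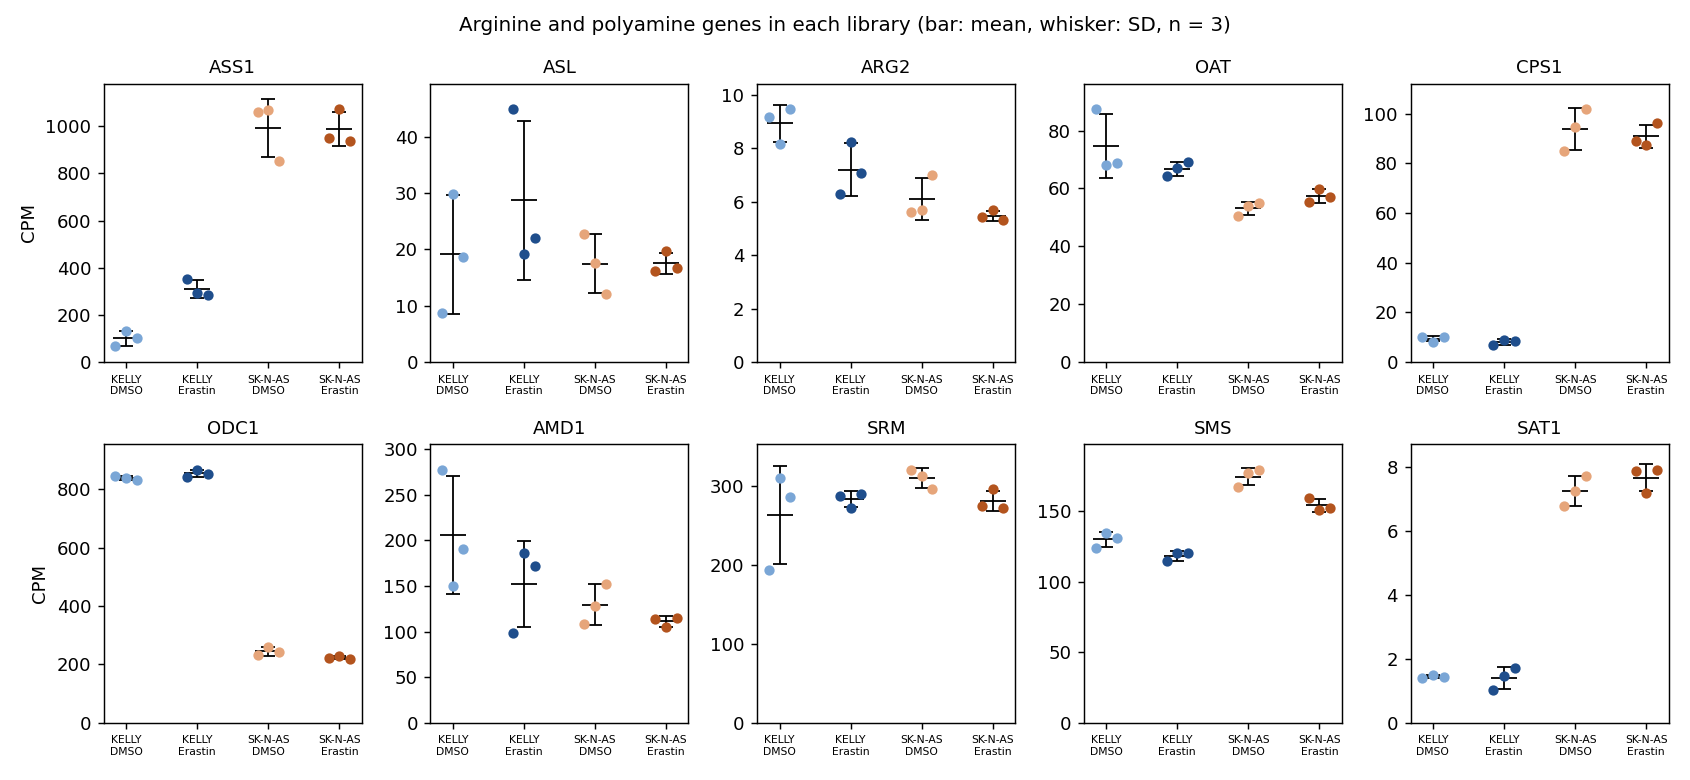
Level of each of the 10 genes in CPM in the 12 libraries, on axes that start at 0; points are libraries, bars are means and whiskers are SD of 3. The ASS1 mean is 100.5 CPM with DMSO and 309.0 CPM with Erastin in KELLY, ODC1 is higher in KELLY, and ASS1, CPS1 and SAT1 are higher in SK-N-AS.

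In SK-N-AS, again none of the 9 genes was called over 16095 genes tested. The threshold of the methods was passed by 2.67% of all genes and the adjusted threshold by 0.659%. No member had an unadjusted p under 0.05, and DESeq2 called 0 of them. The median log2 fold change of the 9 was -0.122, against -0.00895 for all genes (quartiles -0.120 and 0.104). The groups did not overlap for 3 of the 9 (OAT, ODC1 and SMS) and for 14.8% of all genes.

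SMS had the lowest p of the members in SK-N-AS. It stood at 167.4, 176.7 and 179.4 CPM with DMSO and at 159.5, 151.0 and 152.3 CPM with Erastin, all Erastin samples being lower. The log2 fold change was -0.17 (SE 0.078, adjusted p = 0.573 from edgeR) and the adjusted p was 0.0470 with the GC trend removed. AMD1 stood at 108.1, 128.0 and 152.4 CPM with DMSO and at 113.9, 104.5 and 114.8 CPM with Erastin, with overlap. Its log2 fold change of -0.21 (SE 0.12, adjusted p = 0.671 from edgeR) passed with the GC trend removed (adjusted p = 0.0105). Both differences were under the 1.5-fold limit in either fit.

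ODC1 stood at 230.7, 258.6 and 243.6 CPM in SK-N-AS with DMSO and at 221.5, 227.7 and 219.8 CPM with Erastin. The groups did not overlap, and the log2 fold change of -0.12 (SE 0.077, adjusted p = 0.743 from edgeR) was not called. OAT stood at 50.6, 53.9 and 54.8 CPM with DMSO and at 55.2, 59.8 and 56.97 CPM with Erastin. These groups did not overlap either, with a log2 fold change of 0.12 (SE 0.087). SRM stood at 321.3, 312.9 and 296.3 CPM and at 275.6, 296.8 and 272.8 CPM, with overlap and a log2 fold change of -0.13 (SE 0.076). The log2 fold changes of ASL, CPS1, ARG2 and SAT1 were 0.01, -0.04, -0.15 and 0.09, and the 95% intervals of all 4 held 0.

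**Figure D4:**
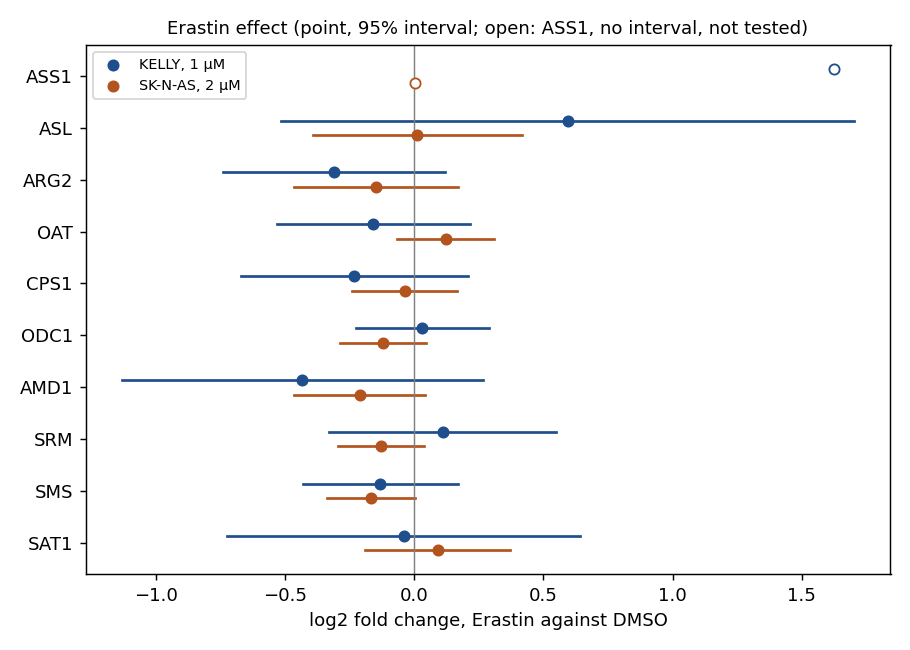
Log2 fold change of Erastin against DMSO (horizontal axis) for the 10 genes in KELLY (1 µM) and SK-N-AS (2 µM), with 95% intervals from edgeR for the 9 tested genes; open points are ASS1, which was not tested. ASS1 in KELLY lies at 1.62, and the intervals of the 9 tested genes hold 0 in both lines.

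Whether the responses differed between the lines was tested with the interaction of treatment and line over all 12 samples and 18239 genes. None of the 9 genes was called. The threshold of the methods was passed by 3.53% and the adjusted threshold by 0.00548% of all genes, no member had an unadjusted p under 0.05, and DESeq2 called 0. The largest difference in size among the 9, SK-N-AS minus KELLY, was that of ASL, -0.58 (95% interval -1.83 to 0.66). The interval of ODC1 was the narrowest, from -0.41 to 0.09 around -0.16. OAT had the lowest p, with a difference of 0.27 (SE 0.17, adjusted p = 0.811 from edgeR).

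Control levels between the lines were compared over the 6 DMSO samples, which also enter the Erastin comparisons. Most genes differ between the lines: 57.6% of 17089 genes passed the threshold of the methods and 61.3% the adjusted threshold. Of the 9 members, 4 passed the first (CPS1 and SAT1 higher in SK-N-AS, ODC1 and AMD1 lower) and 7 the second (SMS higher, OAT and ARG2 lower in addition). These shares lie near the background, so the number of members that differed is no result in itself. The groups did not overlap for 6 of the 9, against 66.3% of all genes.

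Among the enzymes that make polyamines, ODC1 had the largest difference toward KELLY. Its 3 DMSO samples at 832.3 to 847.2 CPM in KELLY stood 3.44 times above the 230.7 to 258.6 CPM in SK-N-AS. The log2 difference, SK-N-AS minus KELLY, was -1.79 (SE 0.11, adjusted p = 2.04e-06 from edgeR), and the ratio of group means in Erastin was 3.84. Of the other enzymes that make polyamines, AMD1 was lower in SK-N-AS by a log2 difference of -0.68 (SE 0.23, adjusted p = 0.0309) although single samples overlapped, and SMS was higher by 0.41 (SE 0.12, adjusted p = 0.0142). Of the genes with an E-box in a window, ASS1 and CPS1 were higher in SK-N-AS, with ratios of 9.89 and 10.0 in DMSO. The E-box of CPS1 lies far from its main start, and a link between E-boxes and levels was not tested. SRM, which also carries an E-box in its window, stood at 321.3, 312.9 and 296.3 CPM in SK-N-AS against 193.5, 311.1 and 286.2 CPM in KELLY. Its log2 difference of 0.22 (95% interval -0.18 to 0.63, adjusted p = 0.309 from edgeR) was not called. The enzymes that make polyamines thus did not differ in 1 direction.

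CPS1 and SAT1 were higher in SK-N-AS. CPS1 stood at 85.1, 94.6 and 101.9 CPM there and at 8.2 to 10.1 CPM in KELLY, a ratio of 10.0. Its log2 difference was 3.31 (SE 0.16, adjusted p = 5.12e-07 from edgeR), and the ratio in Erastin was 11.4. SAT1 had 184, 182 and 205 counts in SK-N-AS against 36 to 41 in KELLY, a ratio of 5.01 in CPM, with a log2 difference of 2.31 (SE 0.20, adjusted p = 1.35e-05 from edgeR). The annotation places a second gene on the same strand within SAT1, so its count is uncertain. Per kilobase, SAT1 at 6.90 ± 0.446 in SK-N-AS was still among the lowest of the members, and its samples overlapped those of ASL (8.16 ± 2.46).

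The calls of the ornithine enzymes and of AMD1 and SMS were lost in some fits with 1 library fewer, while their log2 differences kept their direction. OAT was lower in SK-N-AS by -0.51 (SE 0.15, adjusted p = 0.0166 from edgeR) and ARG2 by -0.57 (SE 0.18, adjusted p = 0.0234). With edgeR, the ARG2 call was lost without KELLY DMSO replicate 3 (adjusted p = 0.0893) and without SK-N-AS DMSO replicate 1 (0.0919) or 2 (0.107). That of OAT was lost without SK-N-AS DMSO replicate 1 (adjusted p = 0.0693) or 2 (0.0668). AMD1 was lost without KELLY DMSO replicate 3 (adjusted p = 0.0571) and SK-N-AS DMSO replicate 1 (0.117) or 2 (0.0886), and SMS without KELLY DMSO replicate 3 (0.0635) and SK-N-AS DMSO replicate 2 (0.0679) or 3 (0.0522). With 1 library left out, the log2 differences ran from -0.66 to -0.50 for ARG2, from -0.57 to -0.38 for OAT and from 0.37 to 0.45 for SMS. That of AMD1 ran from -0.86 without KELLY DMSO replicate 2 to -0.41 without KELLY DMSO replicate 1, and the adjusted threshold was passed in both. ODC1, CPS1 and SAT1 passed in each of these fits. ARG2 overlaps VTI1B, a gene of up to 2007 counts on the other strand, and its count is uncertain without strand information. ASL, at 22.6, 17.6 and 12.1 CPM in SK-N-AS, did not differ detectably from KELLY, with a log2 difference of -0.14 (95% interval -1.06 to 0.78). A readthrough gene overlaps ASL, so its count is uncertain.

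**Figure D5:**
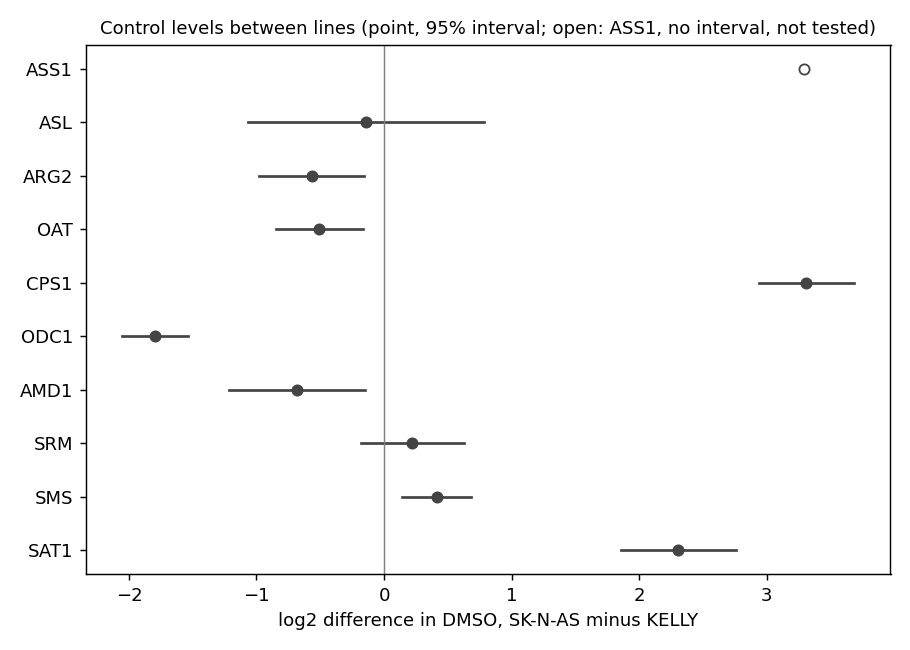
Log2 difference in DMSO, SK-N-AS minus KELLY (horizontal axis), of the 10 genes with 95% intervals from edgeR; the open point is ASS1, which was not tested. CPS1 (3.31) and SAT1 (2.31) lie toward SK-N-AS, ODC1 (-1.79) toward KELLY, and the intervals of SRM and ASL hold 0.

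Around the members, 47 further genes of 5 lists were read in the same fits. The lists too were chosen with earlier results of these data known. With Erastin in KELLY, 0 of the 40 list genes that could be tested were called at either threshold. Of all genes, 2.03% passed the threshold of the methods and 0.00615% the adjusted one. DESeq2 gave 0 list calls at an adjusted p under 0.05. Of the 40, 1 had an unadjusted p under 0.05 from edgeR, as had 430 of all 16258 genes. That gene was SLC7A1, the main carrier of arginine into cells, at 248.6, 285.1 and 276.5 CPM with DMSO and 365.3, 357.7 and 361.1 CPM with Erastin (log2 fold change 0.42, SE 0.13, adjusted p = 0.770 from edgeR). In SK-N-AS, SLC7A1 rose from 169.0, 155.1 and 142.8 CPM to 264.0, 308.4 and 274.9 CPM, a log2 fold change of 0.87 (SE 0.091, adjusted p = 4.16e-04). It kept an adjusted p under 0.05 in all alternatives run. The difference of its response between the lines was 0.44 (SE 0.14, adjusted p = 0.811 from edgeR). GOT1, an aspartate aminotransferase, rose in SK-N-AS from 40.6, 47.2 and 42.9 CPM to 58.5, 66.5 and 60.5 CPM. Its log2 fold change was 0.52 (SE 0.095, adjusted p = 0.0279 from edgeR). Its call was lost without SK-N-AS DMSO replicate 2 (adjusted p = 0.102) or Erastin replicate 1 (0.105), 2 (0.221) or 3 (0.136), while the log2 fold change stayed between 0.47 and 0.58 in the 14 alternatives. These were the 2 genes called of 41 tested in SK-N-AS, where 0.659% of all genes had an adjusted p under 0.05. Both were upward, as were 74 of the 106 calls over all genes. SLC7A1 alone passed the threshold of the methods, which 2.67% of all genes passed.

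By list, the KELLY fit gave 0 calls of 14 genes of arginine and the urea cycle, 0 of 3 arginine transporters, 0 of 11 genes of polyamine control and breakdown, 0 of 4 of hypusination and 0 of 8 of the methionine cycle and salvage. In SK-N-AS, the calls at an adjusted p under 0.05 were 1 of 15, 1 of 4, 0 of 10, 0 of 4 and 0 of 8 in the same order. That threshold was passed by 0.00615% of all genes in KELLY and by 0.659% in SK-N-AS. In DMSO between the lines, 11 of 42 genes were higher and 11 lower in SK-N-AS at an adjusted p under 0.05, a threshold that 61.3% of all genes passed, so the count is no result about the lists. The mitochondrial aspartate carrier SLC25A13 was lower in SK-N-AS (log2 difference -1.78, SE 0.14, adjusted p = 6.87e-06 from edgeR), at 68.9 to 80.4 CPM against 229.5 to 278.2 CPM. The transporters SLC7A1 (-0.81, SE 0.13) and SLC7A6 (-1.06, SE 0.15) were lower in SK-N-AS too. A further arginine transporter, SLC7A2, went the other way, at 224.9 to 245.9 CPM in SK-N-AS against 112.5 to 149.4 CPM in KELLY. NOS2, which makes nitric oxide from arginine, was lower by -2.95 (SE 0.26) and agmatinase AGMAT by -1.67 (SE 0.27), both from low levels of at most 7.11 CPM. DDAH1, which degrades methylated arginine, was higher by 1.30 (SE 0.21).

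Of 11 genes of polyamine control and breakdown, 4 were higher and 1 lower in SK-N-AS at an adjusted p under 0.05, against 61.3% of all genes called in either direction. PAOX, the oxidase that acts on the products of SAT1, stood at 5.82, 5.53 and 4.85 CPM in SK-N-AS and at 0.117, 1.02 and 0.455 CPM in KELLY (log2 difference 3.34, SE 0.50, adjusted p = 4.29e-04 from edgeR). With 3, 25 and 13 counts in KELLY, this difference was 2.88 without KELLY DMSO replicate 1 and 4.17 without replicate 2. AZIN2, an antizyme inhibitor, was higher by 2.70 (SE 0.40, adjusted p = 3.68e-04). SLC18B1, a vesicular polyamine transporter, had 774, 481 and 662 counts in KELLY with DMSO and 0 in each SK-N-AS DMSO sample. With a floor of 3 counts per library, it was at least 212.6-fold higher in KELLY. In SK-N-AS with Erastin it had 1, 5 and 2 counts, and it was the 1 list gene past the threshold of the methods in the interaction (adjusted p = 0.811 from edgeR). Of all genes, 3.53% passed that threshold. EIF5A, the protein that carries the spermidine-derived hypusine, was lower in SK-N-AS by -1.16 (SE 0.18, adjusted p = 4.61e-04).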

How the data were processed

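Raw gene counts of 12 samples were used as deposited, without normalization. The authors used HTSeq with GENCODE gene models on GRCh38 to count reads. Trimmomatic is named in the processing notes, and the aligner and strandedness are not given in the sources used here. Coordinates and lengths come from GENCODE release 44, a later release on the same assembly than the authors used, and were matched by symbol, since the tables hold names only. Total counts limit precision as stated above.

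Counts were analysed in R 4.3.3 with edgeR 4.0.16 (filterByExpr, minimum count 10, TMM scaling, quasi-likelihood test), each line alone, with Benjamini-Hochberg adjustment over all genes tested. Interaction and DMSO comparisons used 12 and 6 samples. The methods name protein-coding genes and DESeq2, run here as alternatives (DESeq2 1.42.0), with RLE scaling, no filter, a replicate block, a GC correction (loess of log2 ratio on gene GC content, span 0.5), 1 fit of all 12 samples, and each replicate left out. Fits were tested on simulated data. Samples of a group were compared and none was a copy of another.

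Named genes were the 10 members, list genes past a threshold (at most 10 a comparison by p), the 5 genes most like ASS1, and MYCN. Members and lists were chosen with earlier results of these data known.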

Additional observations from a re-analysis of the deposited data

How the results depend on the processing

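In KELLY, 0 of the 9 genes were called under any of the 14 alternatives. The log2 fold change of ASS1 kept its sign there, from 1.40 to 1.86, and so did its difference between lines (-1.87 to -1.40) and its DMSO difference (3.06 to 3.53). In SK-N-AS, the number of the 9 at an adjusted p under 0.05 went from 0 to 2 with the GC correction and 3 with the replicate block and GC correction, while calls over all 16095 genes went from 106 to 1059 and 1775. Other pathway genes there went from 2 to 4, to 5, and to 1 with all 12 samples in 1 fit (1 to 3 with 1 replicate left out). In the interaction they went from 0 to 1 (SLC7A1) with the GC correction, while calls over all genes went from 1 to 22. In DMSO, 7 members became 3 with the replicate block, while calls over all 17089 genes went from 10473 to 9041. With 1 replicate left out, the members called were 3 to 7. Calls over all genes then ran from 8956 of 17808 to 11769 of 17692. Whether replicate numbers pair the samples was not settled. Same-number correlations of deviations from the group mean were -0.487 to -0.0359 in KELLY, -0.0081 to 0.122 in SK-N-AS and -0.315 to 0.101 between lines. The GC trend of each library enters these values, so they cannot decide it.

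Signs turned for some values that were not called. With the GC correction, and with the replicate block and GC correction, KELLY log2 fold changes were 0.0301 and 0.0231 for OAT, -0.2377 and -0.2717 for SRM, and 0.0605 and 0.0490 for SAT1, and the difference between lines was -0.0639 and -0.0643 for AMD1 and 0.1546 and 0.1960 for SRM. With 1 replicate left out, ranges were -0.0687 to 0.2428 (SRM) and -0.2096 to 0.1347 (SAT1) in KELLY, -0.1938 to 0.2463 (ASL) and -0.1038 to 0.0268 (CPS1) in SK-N-AS, -0.0647 to 0.3925 (AMD1) and -0.0575 to 0.2826 (SAT1) for the difference, and -0.4937 to 0.3270 (ASL) in DMSO. The cause was not tested.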

Other observations

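Methionine salvage recycles the methylthioadenosine that SRM and SMS release. Of 8 genes of the methionine cycle and salvage tested in DMSO, 3 were higher and 2 lower in SK-N-AS at an adjusted p under 0.05 from edgeR, near the 61.3% of all genes called in either direction, so the count is no result about the pathway. MRI1 stood at 35.1, 26.6 and 24.7 CPM in SK-N-AS and at 8.79, 16.2 and 14.5 CPM in KELLY (log2 difference 1.12, SE 0.25, adjusted p = 0.00419). ADI1, the last enzyme before the transamination to methionine, was higher by 0.81 (SE 0.16, adjusted p = 0.00227), while MTAP, the first enzyme, gave -0.14 (SE 0.17, adjusted p = 0.522). ENOPH1 and AHCY were lower in SK-N-AS, with means of 77.1 and 265.7 CPM against 110.4 and 377.2 CPM in KELLY, without overlap. The named genes of the methionine cycle and salvage and the blood cell markers that follow were chosen after their values were seen.

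PTPRC, the leukocyte antigen CD45, had 12835 to 16496 counts in SK-N-AS libraries and 0 in KELLY libraries, at least 4781-fold in DMSO against a floor of 3 counts per library. CD3E, MS4A1, LYZ and ITGAM were at 0 in all 12 libraries. HBB had 208 counts in KELLY DMSO replicate 1, 91 in KELLY Erastin replicate 1 and 40 in SK-N-AS Erastin replicate 1, and at most 3 elsewhere.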
